A study of Mus musculus with 6 samples.

Results

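The collagen chain genes of newborn mouse epidermis were lower in healing suction blisters than in control skin for most of the chains that could be tested, and Col18a1 was the single chain that rose. The set held 42 of the 24014 genes counted in each library: every gene whose symbol is Col, a number, the letter a and a number, leaving out Col7a1 and Col17a1. By structure, 11 were chains of fibrillar collagens, 6 were chains of the basement membrane collagen type IV, and 25 belonged to other types. A filter on low counts left 35 of the 42 chains, and 7 were too low to test.

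Both groups were epidermal cells from the dorsal skin of wild type mice at P2 (postnatal day 2). The blister group was 3 RNA-seq libraries from skin healing after a suction blister, raised at 523.4 ± 1.3 mmHg under a syringe 4 mm wide and typically 3 mm across, and the control group was 3 libraries from control skin. The samples of both groups were treated overnight with 0.25% trypsin, and the minced epidermis was passed through a 70 µm filter, and no sort that would remove cells of the dermis is described. The strain, the time between suction and collection, and whether each library came from its own animal were not stated in the sources used here. The p-values therefore rest on the spread between libraries, which could be technical only.

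Collagens are built from 3 chains wound into a triple helix. Fibrillar chains such as those of types I, III and V are made mainly by fibroblasts and form the banded fibrils of the dermis. Type IV chains form the sheet-like network of basement membranes, to which keratinocytes as well as mesenchymal cells contribute. The remaining chains decorate fibrils, form beaded filaments, span cell membranes or carry sugar chains in the basement membrane zone. In RNA from mixed cells, fewer cells of a type and less RNA per cell cannot be told apart.

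The libraries held between 7600567 and 15912863 counts. Values are counts-per-million (CPM), scaled by each library's total and a trimmed-mean (TMM) factor, and a gene was called changed at an adjusted p under 0.05 by edgeR's quasi-likelihood test over 14028 genes. Of these genes 2993 (21.3%) were called, 1626 (11.6%) lower and 1367 (9.74%) higher in blisters, so 54.3% of the calls were lower; scaling by library size alone moved that share to 83.9% and the median log2 fold change of all genes to -0.25, from 0.00, and upper-quartile scaling moved the share to 65.6%. The 8 basal keratinocyte markers, among them Krt14, summed to between 41585 and 59264 CPM in blisters and between 23306 and 23714 CPM in controls, so keratinocyte RNA was abundant in all 6 libraries. Control 3 stood apart in markers of other tissues: 6 skeletal muscle genes summed to 139 CPM there and to between 0.979 and 3.16 CPM in the other 5 libraries. Blister 2 stood apart in the adipocyte gene Cfd, at 48.1 CPM, with control 3 at 20.0 CPM and the other 4 libraries at 1.44 CPM or less. Cfd was chosen after its values were seen. The adipocyte markers Adipoq, Plin1, Cidec and Lpl were also highest in blister 2 and control 3 within their groups, but Pparg was not. Pparg was at 7.29 CPM in blister 2, between blister 1 (5.87 CPM) and blister 3 (11.6 CPM). In control 3 it was at 19.4 CPM, below control 1 (29.7 CPM) and control 2 (30.4 CPM). For the fibrillar chains Col1a1, Col1a2, Col3a1 and Col5a3, log2 fold changes are given with and without control 3 and blister 2. Summed levels of a class are not given without blister 2.

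Of the 35 chains tested, 21 were called lower in blisters (60.0%, against 11.6% of all genes tested), 1 was called higher (2.86%, against 9.74%) and 13 were not called. The median log2 fold change of the 35 was -2.16, against 0.00 for all genes tested, and 34 of the 35 were below 0. In 27 chains (77.1%, against 23.1% of all genes) every blister library lay below every control library. At least 2-fold lower and called were 19 chains (54.3%, against 7.58%). A chain can pass the filter on low counts through the controls alone, so these counts describe the chains that passed and do not stand for the 7 others. Among the 22 chains with a mean of at least 10 CPM over all 6 libraries, 14 were called lower, 1 higher and 7 not.

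**Figure D1:**
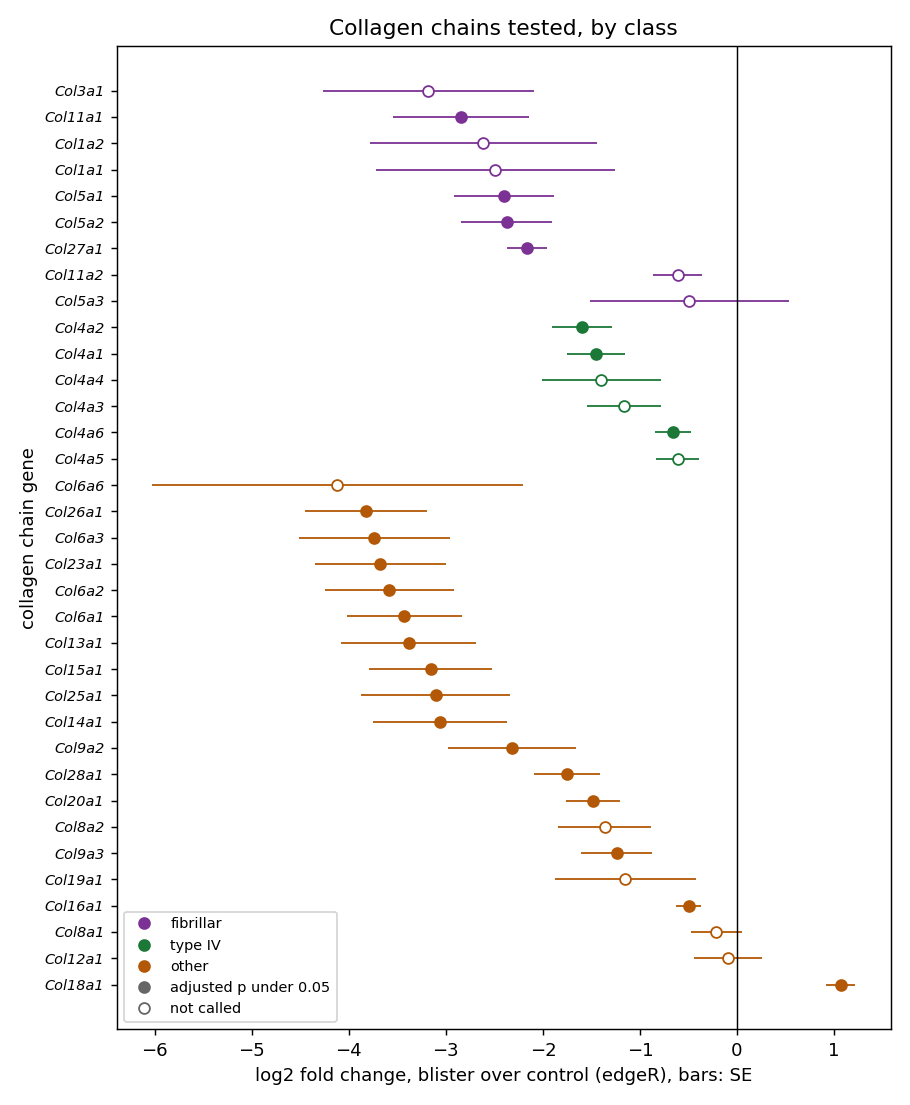
Log2 fold change of blister over control (x axis) for the 35 chains tested, ordered within each class by size. Bars are standard errors derived from the F statistic of the edgeR test, and filled points passed an adjusted p of 0.05. Col18a1, at 1.07, is the single point right of 0, and the widest bars belong to Col6a6, Col1a1, Col1a2 and Col3a1, which were not called.

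The most abundant chain also differed between the groups when levels were taken per kb of transcript. Col18a1 led in every blister library, at 64.8, 79.8 and 67.8 CPM per kb, and made 33.0%, 21.9% and 25.3% of the summed level of all chains in blister 1, 2 and 3. Col3a1 led in every control library, at 61.8, 80.7 and 554 CPM per kb, with 12.0%, 13.8% and 30.7% of the sum. The share of Col18a1 in the controls was 5.60%, 5.97% and 2.08%. The 3 main fibril chains Col1a1, Col1a2 and Col3a1 together made 8.30%, 37.8% and 8.01% of the summed level in blisters and 19.5%, 25.0% and 57.0% in controls, so these shares overlapped between the groups. The type VI chains Col6a1, Col6a2 and Col6a3 together made 1.91%, 5.18% and 7.93% in blisters and 23.5%, 21.3% and 14.6% in controls, with no overlap.

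**Figure D2:**
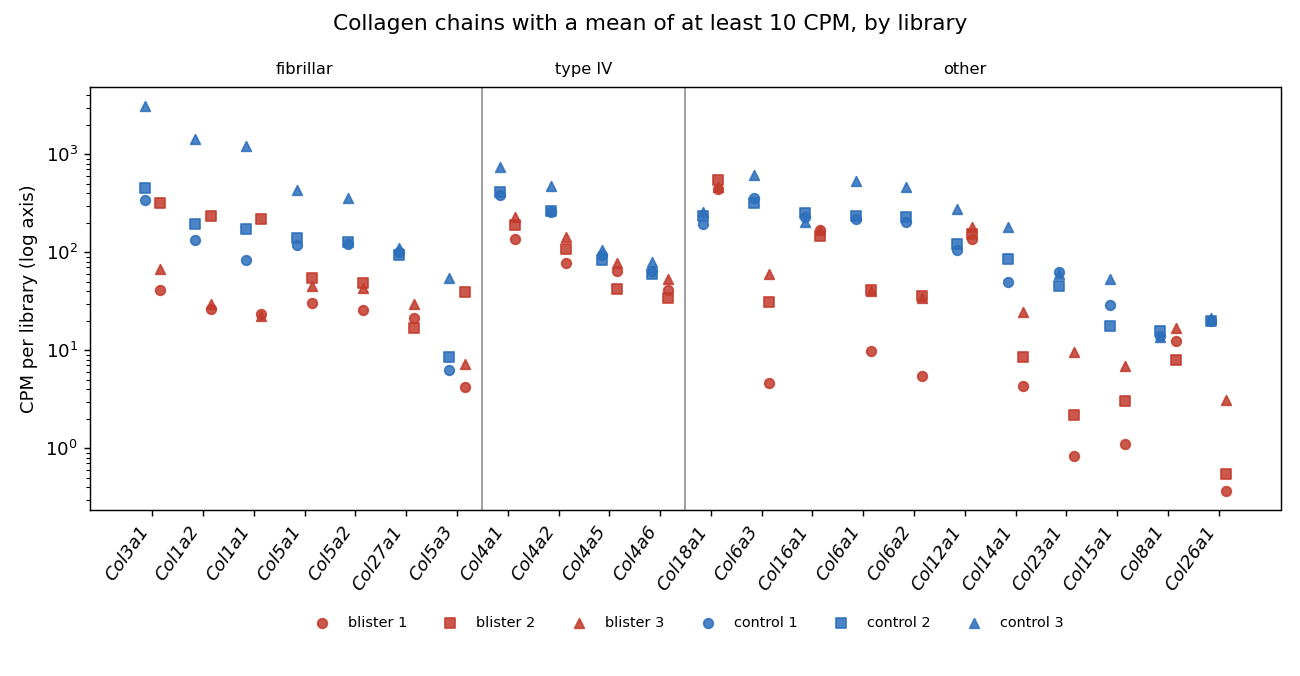
CPM of each of the 22 chains of at least 10 CPM in every library (log axis), control libraries in blue and blister libraries in red, with a different symbol for each library number. Control 3 (blue triangle) is the highest of the 6 libraries for 18 of these 22 chains, and Col18a1 is the chain whose 3 blister libraries all lie above the 3 controls.

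The fibrillar class held 11 chains, of which 9 were tested. Called lower were 4, Col5a1, Col5a2, Col27a1 and Col11a1 (44.4%, against 11.6% of all genes tested). None was called higher (0 also at an unadjusted p under 0.05 and by DESeq2 and limma-voom), and 5 were not called. The median log2 fold change was -2.40. The summed level of the class was 178, 939 and 250.4 CPM in blisters and 919.7, 1195 and 6696 CPM in controls. Blister 2 lay above control 1, so the groups overlapped, and the exact two-sided permutation test gave p = 0.2 (0.2 adjusted over 3 classes), where 0.1 is the smallest p that 3 against 3 libraries allow.

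Col1a1 and Col1a2 encode the chains of type I collagen, the main fibril collagen of dermis, and Col3a1 encodes that of type III, which is abundant in newborn skin. The blister libraries held Col3a1 at 41.2, 319.6 and 68.0 CPM, in the order blister 1, 2 and 3, and the control libraries held it at 344, 449 and 3083 CPM, in the same order. Control 3 was 7.78 times the mean of the other 2 controls and held 83.3% of the control counts, while blister 2 was 5.85 times the mean of the other 2 blisters. The fold change was -3.18 ± 1.09 on the log2 scale (± SE, n = 3 per group), with an edgeR adjusted p of 0.0726.

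Col1a2 was at 26.3, 233 and 29.4 CPM in blisters and at 133, 193 and 1429.7 CPM in controls. Col1a1 was at 23.6, 219 and 22.1 CPM in blisters and at 83.9, 173 and 1218 CPM in controls. For both chains blister 2 was above controls 1 and 2, and the groups overlapped. Their log2 fold changes were -2.62 ± 1.17 (edgeR adjusted p = 0.141) and -2.49 ± 1.23 (adjusted p = 0.174), so neither was called. Within a library the 2 chains kept close levels: the ratio of Col1a1 to Col1a2 per kb lay between 0.570 and 0.848 in the 6 libraries.

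The 3 chains differed most in 2 libraries, control 3 and blister 2. Without control 3 their log2 fold changes were -1.48 for Col3a1, -0.77 for Col1a2 and -0.55 for Col1a1, and none was called (edgeR adjusted p = 0.241, 0.590 and 0.734). Without blister 2 alone, Col3a1 was called at -4.54 (adjusted p = 0.0490), and DESeq2 on all 6 libraries also called it, at -3.16 (adjusted p = 0.0396). Col1a2 and Col1a1 were at -4.37 and -4.40 without blister 2 alone and were not called (edgeR adjusted p = 0.0572 and 0.0641). Without both libraries, a comparison chosen after seeing the data and with 2 libraries a group, the values were -2.86, -2.55 and -2.49, and all 3 were called lower (adjusted p = 0.0131, 0.0124 and 0.0183). Their part in the 3 chains of the markers that are also high in these libraries was not tested. Among 14 dermal fibroblast markers, Dlk1 was at 301 CPM in control 3 and 47.0 CPM in blister 2, against 1.74 to 13.9 CPM in the other 4 libraries. Clec3b was at 64.3 CPM in control 3 and 5.23 CPM in blister 2, against 0.460 to 2.17 CPM. Both were chosen after their values were seen, and not every marker of the list was high in these libraries. Dpp4 was at 41.1 CPM in blister 2, below blister 1 (62.6 CPM) and blister 3 (54.8 CPM). Lsp1 was at 16.8 CPM in control 3, between control 1 (17.8 CPM) and control 2 (14.8 CPM).

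**Figure D3:**
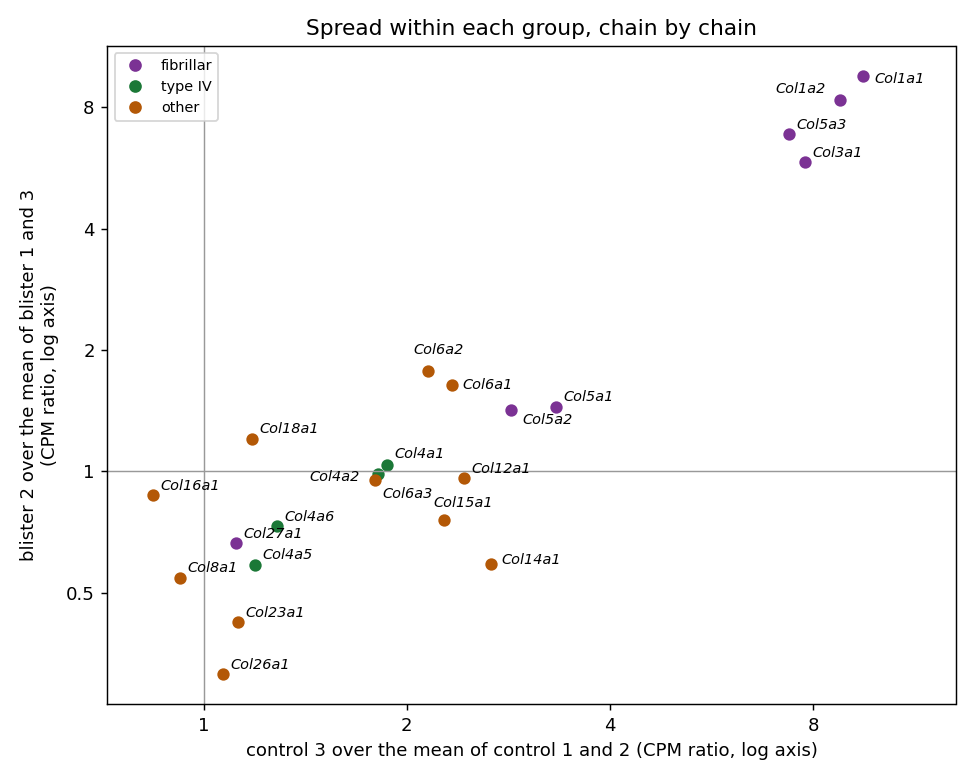
Each point is a chain of at least 10 CPM; the x axis is its CPM in control 3 over the mean of controls 1 and 2, and the y axis its CPM in blister 2 over the mean of blisters 1 and 3 (both log axes). Col1a1, Col1a2, Col3a1 and Col5a3 stand alone at the upper right, above 5 on both axes, while Col5a1, Col5a2 and the type VI chains lie lower.

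Type V collagen nucleates fibrils and limits their width, and Col5a1 and Col5a2 encode its main chains. Col5a1 was at 30.6, 54.9 and 45.2 CPM in blisters and at 117, 140.4 and 429 CPM in controls. Col5a2 was at 25.5, 48.8 and 43.2 CPM in blisters and at 122, 128 and 357 CPM in controls. Here blister 2 was close to blister 3, and no blister library reached a control library. Both fell, with log2 fold changes of -2.40 ± 0.51 for Col5a1 and -2.37 ± 0.47 for Col5a2 (edgeR adjusted p = 0.0202 and 0.0166), and both were still called without control 3, at -1.57 and -1.68 (adjusted p = 0.0207 for each). The calls were lost without blister 1 (adjusted p = 0.0739 and 0.0602).

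Col5a3, the gene of a type V chain that is found in fewer tissues, was spread within each group much as the type I chains were. It was at 4.22, 39.5 and 7.30 CPM in blisters and at 6.36, 8.46 and 54.6 CPM in controls, and control 3 was 7.37 times and blister 2 6.86 times the mean of the other libraries of their group. Its log2 fold change was -0.49 ± 1.02 (edgeR adjusted p = 0.753) and turned to 1.16 without control 3 (adjusted p = 0.414). Without blister 2 it was -1.99 (adjusted p = 0.205). Without both libraries, the comparison chosen after seeing the data, it was -0.36 (adjusted p = 0.490). The ratio of Col5a3 to Col5a1, chosen after its values were seen, was 0.138, 0.719 and 0.161 in blisters and 0.0542, 0.0603 and 0.127 in controls.

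Col27a1, the gene of a fibrillar chain best known from cartilage, showed the least spread of the fibrillar chains of at least 10 CPM. It was at 21.3, 16.9 and 29.7 CPM in blisters and at 101, 94.6 and 109 CPM in controls, or 22.6 ± 6.50 against 102 ± 7.45 CPM (mean ± SD, n = 3 per group). Control 3 was close to the other controls. Col27a1 fell by 2.16 ± 0.20 on the log2 scale (edgeR adjusted p = 0.00418) and was called lower with any 1 library left out, at -2.40 to -1.99. Col11a1, a cartilage fibril chain, was low here, at 0.255 to 0.733 CPM in blisters and 1.40 to 6.36 CPM in controls; it fell by 2.84 ± 0.70 (adjusted p = 0.0299), but leaving out any 1 library other than control 2 ended the call (-3.35 to -1.98, adjusted p = 0.0597 to 0.0748). Col11a2 was at 3.76 to 5.91 CPM in blisters and 6.43 to 8.66 CPM in controls (log2 fold change -0.61, adjusted p = 0.117), and Col2a1 and Col24a1 were too low to test, with at most 36 counts in a group.

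All 6 type IV chains were tested. Called lower were 3, Col4a1, Col4a2 and Col4a6 (50%, against 11.6% of all genes tested). None was called higher (0 also at an unadjusted p under 0.05 and by DESeq2 and limma-voom), and the median log2 fold change was -1.28. DESeq2 called 5 lower (with 13.2% of all genes called lower) and limma-voom 3. In each of the 6, every blister library lay below every control library (100%, against 23.1% of all genes tested). The class summed to 327, 378 and 513 CPM in blisters and to 808, 830.0 and 1414 CPM in controls, or 406 ± 96.0 against 1017 ± 344 CPM (exact permutation p = 0.1, the smallest possible, 0.15 adjusted over 3 classes).

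Col4a1 and Col4a2 encode the chains that assemble together in nearly all basement membranes, and the 2 genes lie head to head on mouse chromosome 8. They are shown because they fell together and share their start region. In RefSeq's GRCm38.p6 annotation the 2 transcripts overlap by 22 bases at their starts, and the windows from 250 bases before to 50 bases after each start share 78 bases, chr8:11312777-11312854, in capitals below (5′ to 3′ on each gene's own strand, so that the capitals of the one are the reverse complement of the other). The counts themselves were made on NCBIM37 (mm9), and no coordinates of that build are given here. The Col4a1 window is chr8:11312777-11313076 on the minus strand, and the Col4a2 window is chr8:11312555-11312854 on the plus strand.
Col4a1: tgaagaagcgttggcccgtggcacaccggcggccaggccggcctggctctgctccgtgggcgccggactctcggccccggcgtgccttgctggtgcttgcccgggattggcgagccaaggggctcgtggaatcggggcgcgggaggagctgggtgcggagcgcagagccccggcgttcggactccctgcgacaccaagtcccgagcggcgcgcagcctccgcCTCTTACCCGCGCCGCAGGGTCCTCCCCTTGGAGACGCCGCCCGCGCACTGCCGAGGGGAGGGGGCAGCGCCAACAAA
Col4a2: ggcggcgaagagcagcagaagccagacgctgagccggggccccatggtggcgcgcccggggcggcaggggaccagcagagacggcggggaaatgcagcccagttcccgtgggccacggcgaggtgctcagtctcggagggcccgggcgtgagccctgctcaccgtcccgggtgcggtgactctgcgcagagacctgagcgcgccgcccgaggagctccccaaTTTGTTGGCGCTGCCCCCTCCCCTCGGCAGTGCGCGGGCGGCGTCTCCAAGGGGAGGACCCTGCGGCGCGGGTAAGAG

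Col4a1 was at 138, 191 and 231 CPM in blisters and at 381, 411 and 740.0 CPM in controls. Col4a2 was at 78.1, 109 and 142 CPM in blisters and at 255, 266 and 473 CPM in controls. Control 3 was the highest library for both, but controls 1 and 2 also lay above every blister. Both fell, with log2 fold changes of -1.45 ± 0.30 for Col4a1 and -1.60 ± 0.31 for Col4a2 (edgeR adjusted p = 0.0188 and 0.0152), and without control 3 the values were -1.08 and -1.25 (adjusted p = 0.0330 and 0.0292). Both calls were lost without blister 1 (adjusted p = 0.0640 and 0.0513). The ratio of Col4a1 to Col4a2 was 1.77, 1.76 and 1.63 in blisters and 1.49, 1.54 and 1.56 in controls, a log2 difference of 0.16 with no overlap (exact permutation p = 0.1, the smallest possible, 0.275 adjusted over 11 pairs).

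Col4a5 and Col4a6 encode chains of a second type IV network that also lies under the epidermis. Col4a5 was at 64.9, 41.8 and 77.6 CPM in blisters and at 93.3, 83.6 and 106 CPM in controls. Col4a6 was at 41.5, 34.5 and 52.8 CPM in blisters and at 64.8, 59.4 and 79.7 CPM in controls. The groups did not overlap for either chain, and the differences were smaller than those of Col4a1 and Col4a2. Col4a6 fell by 0.66 ± 0.18 (edgeR adjusted p = 0.0424), but leaving out any 1 library other than blister 3 ended the call (adjusted p = 0.0672 to 0.125). Col4a5 was at -0.61 ± 0.22 and was not called (adjusted p = 0.0822); without blister 3 it was, at -0.81 (adjusted p = 0.0316), as it was with the replicate number as a block (-0.65, adjusted p = 0.0365), by DESeq2 (-0.60, adjusted p = 0.0461) and with library size alone (-0.87, adjusted p = 0.0290). The ratio of Col4a1 to Col4a5 was 2.13, 4.58 and 2.98 in blisters and 4.09, 4.91 and 7.01 in controls, which overlapped (exact permutation p = 0.2, 0.44 adjusted). Col4a3 and Col4a4, whose chains serve kidney and lung basement membranes, were at 10.4 CPM or less in all libraries, with log2 fold changes of -1.17 and -1.40 (adjusted p = 0.0654 and 0.133). Without blister 3 both were called lower, Col4a3 at -1.60 (0.0251) and Col4a4 at -2.40 (0.0191), as they were without replicate 3 of both groups (-1.57, 0.0484, and -2.14, 0.0387). Col4a3 was also called by DESeq2 (-1.16, 0.0426) and with library size alone (-1.42, 0.0377).

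Endothelial cells also lay down type IV collagen. Their 9 markers summed to 7.43, 16.8 and 11.0 CPM in blisters and to 13.3, 20.3 and 95.1 CPM in controls. Of 7 tested, 1 (Kdr) was called lower by edgeR (14.3%, near the 11.6% of all genes). DESeq2 called 5 of 9 lower (with 13.2% of all genes called lower). The most abundant of them, Pecam1, was at 1.56, 5.36 and 3.48 CPM in blisters and at 0.920, 2.59 and 19.1 CPM in controls, with a log2 fold change of -1.16 (edgeR adjusted p = 0.423) that turned to 0.94 without control 3. Kdr, Tek and Emcn, chosen after their values were seen, lay below every control in all 3 blisters, as did 23.1% of all genes tested. Emcn was too low to test. Kdr was at 0.458 to 2.21 CPM in blisters and 5.74 to 13.5 CPM in controls, Tek at 0.138 to 0.367 against 0.843 to 9.42 CPM, and Emcn at 0 against 0.230 to 1.99 CPM. The groups overlapped for the remaining markers (Cdh5, Tie1, Egfl7, Esam and Ptprb), as they did for Pecam1. All 9 endothelial markers were highest in control 3, as Col4a1 and Col4a2 were, and the part of these markers in the type IV levels was not tested. None of the 9 markers was at 0 in every library.

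Col18a1 was the chain that rose. It encodes type XVIII collagen, a heparan sulfate proteoglycan of basement membranes whose end fragment is endostatin. Its level was 440.0, 542 and 460.3 CPM in the 3 blister libraries and 196, 236 and 255 CPM in the 3 controls, or 481 ± 54.1 against 229 ± 30.1 CPM (mean ± SD, n = 3 per group), 2.10-fold higher in blisters. The lowest blister library was well above the highest control, and control 3 did not stand apart. The log2 fold change was 1.07 ± 0.15 (edgeR adjusted p = 0.00792), and Col18a1 was called higher with any 1 library left out, at 0.97 to 1.15 (highest adjusted p 0.0372, without control 1).

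RefSeq lists 2 start windows for Col18a1 in GRCm38.p6, and the counts do not separate them. Both are shown because they differ in the motifs found: the window chr10:77166481-77166780 (minus strand) holds 1 CCAAT and 3 GGGCGG matches, in capitals and read here on the opposite strand as ATTGG and CCGCCC, and the window chr10:77113656-77113955 (minus strand) holds none of the 4 motifs searched.
Col18a1 upstream start: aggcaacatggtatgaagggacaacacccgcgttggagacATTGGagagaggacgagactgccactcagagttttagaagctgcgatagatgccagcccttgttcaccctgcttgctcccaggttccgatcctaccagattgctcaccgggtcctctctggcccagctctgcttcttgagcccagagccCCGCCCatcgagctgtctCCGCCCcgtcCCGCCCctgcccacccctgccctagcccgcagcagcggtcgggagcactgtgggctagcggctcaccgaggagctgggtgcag
Col18a1 downstream start: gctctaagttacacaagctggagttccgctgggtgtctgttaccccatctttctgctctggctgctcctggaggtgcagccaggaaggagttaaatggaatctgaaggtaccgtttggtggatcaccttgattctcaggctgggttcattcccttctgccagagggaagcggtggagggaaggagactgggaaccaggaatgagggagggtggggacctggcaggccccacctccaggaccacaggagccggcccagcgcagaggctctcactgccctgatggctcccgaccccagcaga

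Col18a1 and Col4a1, a second chain of basement membranes, moved in opposite directions. The ratio of Col18a1 to Col4a1 was 3.19, 2.83 and 1.99 in blisters and 0.514, 0.575 and 0.345 in controls. This was the largest difference among the 11 pairs of chains that could be tested, at 2.49 on the log2 scale, without overlap (exact permutation p = 0.1, the smallest possible, 0.275 adjusted). Each chain alone separated the groups, in opposite directions, so the ratio had to separate them too. Its p adds nothing to the values of the single chains. Of the 8 basal keratinocyte markers, edgeR called 4 higher, Krt5, Krt14, Itga6 and Cdh1 (50%, against 9.74% of all genes). It called none lower (1 lower by DESeq2, and 1 lower at an unadjusted p under 0.05). Krt14 rose by 1.89 ± 0.20 on the log2 scale (edgeR adjusted p = 0.0045). The part of these markers in the level of Col18a1 was not tested.

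Col15a1, the gene of the closest relative of type XVIII, went the opposite way. Col15a1 was at 1.10, 3.03 and 6.87 CPM in blisters and at 28.8, 17.8 and 53.0 CPM in controls, with no overlap. It fell by 3.16 ± 0.64 on the log2 scale (edgeR adjusted p = 0.0175), and the call was lost without control 1 by a small margin (adjusted p = 0.0505).

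Type VI collagen forms beaded filaments close to cells, and its main chains are encoded by Col6a1, Col6a2 and Col6a3. The class summed to 20.4, 109.6 and 136 CPM in blisters and to 786, 782 and 1623 CPM in controls, which is 12.0-fold lower in blisters, where the fibrillar sum was 6.44-fold and the type IV sum 2.51-fold lower. Without control 3 the factors were 8.85 for type VI, 2.32 for the fibrillar and 2.02 for the type IV class. Called lower were 3 of the 4 type VI chains tested (75%, against 11.6% of all genes), and the median log2 fold change of the 4 was -3.66.

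Col6a1 was at 9.90, 41.4 and 40.6 CPM in blisters and at 221, 234 and 529.7 CPM in controls. Col6a2 was at 5.50, 35.6 and 34.5 CPM in blisters and at 206, 228 and 466 CPM in controls. In both, blister 1 was the lowest library and the groups lay far apart. Both fell, with log2 fold changes of -3.43 ± 0.59 for Col6a1 and -3.58 ± 0.67 for Col6a2 (edgeR adjusted p = 0.0120 and 0.0142), and both were called lower with any 1 library left out.

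Col6a3, which encodes the largest type VI chain, was at 4.58, 31.1 and 60.7 CPM in blisters and at 359, 319 and 608 CPM in controls. It fell by 3.74 ± 0.78 on the log2 scale (edgeR adjusted p = 0.0191), and was at -3.40 without control 3 (adjusted p = 0.0446). The call was lost without blister 2 (adjusted p = 0.0566) and without control 1 (adjusted p = 0.0520). The ratio of Col6a3 to Col6a1 was 0.463, 0.751 and 1.49 in blisters and 1.63, 1.36 and 1.15 in controls, which overlapped (exact permutation p = 0.3, 0.471 adjusted). The ratio of Col6a1 to Col6a2 was 1.80, 1.16 and 1.18 in blisters and 1.07, 1.02 and 1.14 in controls, a log2 difference of 0.33 without overlap (exact permutation p = 0.1, 0.275 adjusted).

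The start windows of Col6a1 (chr10:76725995-76726294, minus strand) and of Col6a2 at the further downstream of its 2 starts (chr10:76623355-76623654, minus strand) are shown because these neighbouring genes fell by similar amounts; capitals mark a TGACTCA match in the first and GGGCGG matches, read as CCGCCC, in the second.
Col6a1: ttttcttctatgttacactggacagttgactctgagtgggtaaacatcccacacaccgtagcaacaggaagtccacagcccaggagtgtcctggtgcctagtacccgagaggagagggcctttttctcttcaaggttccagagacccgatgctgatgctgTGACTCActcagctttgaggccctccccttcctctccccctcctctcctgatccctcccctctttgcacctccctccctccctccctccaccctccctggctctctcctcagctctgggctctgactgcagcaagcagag
Col6a2: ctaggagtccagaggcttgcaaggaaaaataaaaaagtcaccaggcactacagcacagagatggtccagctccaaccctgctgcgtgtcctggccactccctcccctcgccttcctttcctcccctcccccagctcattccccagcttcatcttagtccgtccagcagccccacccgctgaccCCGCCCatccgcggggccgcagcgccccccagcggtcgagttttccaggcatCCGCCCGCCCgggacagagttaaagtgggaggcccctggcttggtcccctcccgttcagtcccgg

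RefSeq's promoter table held 33 of the 42 chains, with 36 windows. Searched on both strands, GGGCGG was in 22 of these windows (61.1%, against 35.7% of 32851 windows of all genes), CCAAT in 11 (30.6%, against 37.4%), TATAAA in 4 (11.1%, against 13.6%) and TGANTCA in 1, that of Col6a1 (2.78%, against 7.81%). None of the 4 motifs contains another, matches may overlap, and the windows of Col4a1 and Col4a2 are not independent. A match describes the letters of a window and not a site in use.

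Other type VI chains were low. Col6a6 had 320 of its 334 control counts in control 3 (95.8%), and its log2 fold change of -4.12 ± 1.91 was not called (edgeR adjusted p = 0.152) and was -0.47 without control 3 (0.863). Col6a4 and Col6a5 were too low to test.

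Most dermal papilla markers were lower as well, and fibroblast markers were mixed. The 8 dermal papilla and sheath markers summed to 5.96, 11.0 and 39.6 CPM in blisters and to 219, 149 and 269 CPM in controls, and 6 of the 7 tested were called lower (85.7%, against 11.6% of all genes). The most abundant, Sox18, was at 0.275, 0 and 6.02 CPM in blisters and at 68.9, 56.2 and 74.0 CPM in controls. Of the 14 dermal fibroblast markers, 13 were tested, 6 were called lower (Pdgfra, Pdgfrb, Twist1, Twist2, Prrx1 and Fap; 46.2%, against 11.6% of all genes), 1 was called higher (7.69%, against 9.74%), 6 were not called, and the median log2 fold change was -3.16. The gene called higher was the most abundant, Fbln1, at 0.51 (edgeR adjusted p = 0.0385). That call was lost without any 1 library other than blister 3 (0.0612 to 0.134), with the replicate block (0.0647), with upper-quartile scaling (0.0516) and with library size alone (0.186). Pdgfra, a receptor that marks dermal fibroblasts, was at 1.01, 6.05 and 4.41 CPM in blisters and at 27.3, 19.3 and 69.1 CPM in controls. The fibroblast list summed to 247 to 351 CPM in blisters and to 262 to 961 CPM in controls, which overlapped (exact permutation p = 0.6), Tcf21 was at 0 in all 6 libraries, and Fbln1 was at 154 to 178 CPM in blisters and 96.6 to 127 CPM in controls. Their part in the lower collagen chains was not tested.

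**Figure D4:**
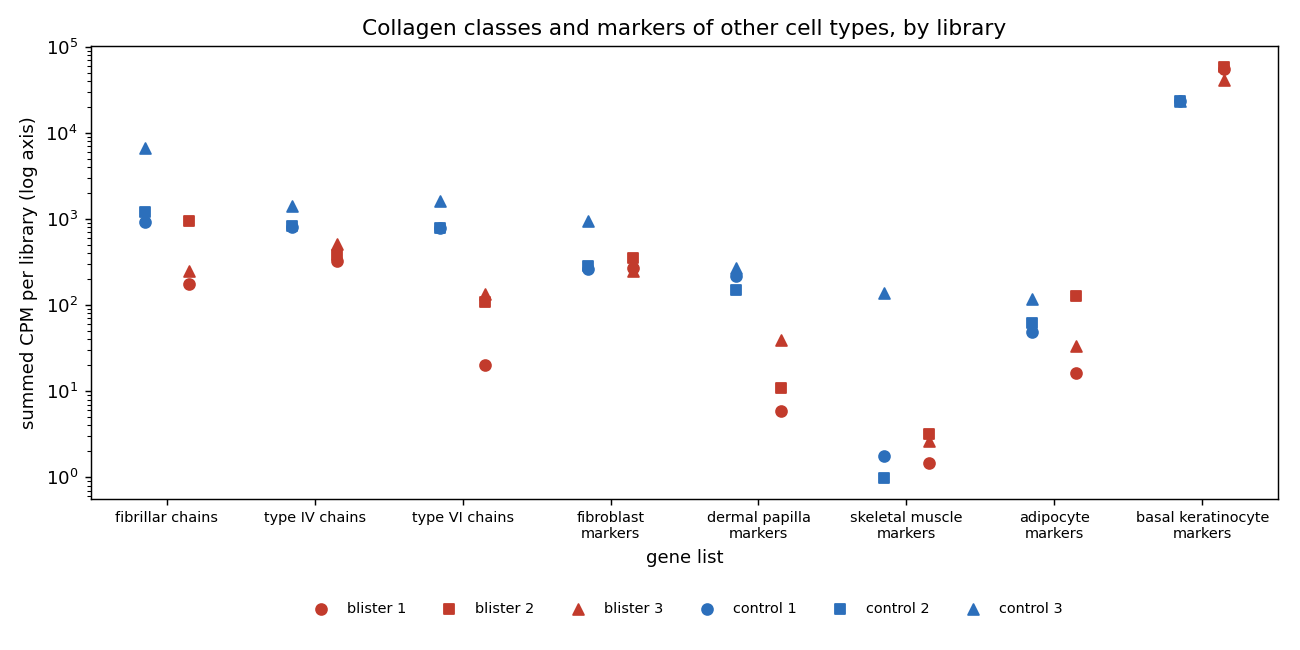
Summed CPM per library (log axis) of 3 collagen classes and 5 marker lists, control libraries in blue and blister libraries in red, with a different symbol for each library number. Control 3 (blue triangle) is highest for the fibrillar, type IV and type VI chains and for the fibroblast, dermal papilla and skeletal muscle markers. Dermal papilla markers are at 5.96 to 39.6 CPM in blisters and 149 to 269 CPM in controls.

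FACIT collagens sit on the surface of fibrils or at the basement membrane zone. Of their 9 chains, 7 were tested and 5 were called lower (71.4%, against 11.6% of all genes), with a median log2 fold change of -1.24. Col16a1, the gene of a FACIT chain found at the dermal and epidermal border, was at 168, 148 and 170.4 CPM in blisters and at 231, 252 and 203 CPM in controls. The groups were close and did not overlap, and control 3 was the lowest control. Col16a1 fell by 0.50 ± 0.13 (edgeR adjusted p = 0.0335), a call lost with the replicate number as a block (adjusted p = 0.0576) and without blister 1, blister 2, control 1 or control 2 (adjusted p = 0.0838 to 0.114).

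Col12a1 and Col14a1 encode FACIT chains that bind type I fibrils, and they differed. Col12a1 was at 138, 153 and 180.2 CPM in blisters and at 106, 121 and 276 CPM in controls. Every blister library lay above controls 1 and 2 and below control 3, so the groups overlapped. The log2 fold change of Col12a1 was -0.09 ± 0.35 (edgeR adjusted p = 0.863), and 0.47 without control 3 (adjusted p = 0.110). Col14a1 was at 4.31, 8.53 and 24.7 CPM in blisters and at 50.2, 85.6 and 181 CPM in controls, with no overlap. It fell by 3.06 ± 0.69 (adjusted p = 0.0232), and the call was lost without control 3, at -2.42 (adjusted p = 0.0549), as well as without blister 1, blister 2 or control 2 (adjusted p = 0.0529 to 0.0665).

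The 3 transmembrane collagens, whose chains are anchored in the cell membrane, were all called lower (100%, against 11.6% of all genes). Col23a1 was at 0.825, 2.20 and 9.59 CPM in blisters and at 62.2, 45.0 and 60.3 CPM in controls. Blister 3 was the highest blister library and still below every control. Col23a1 fell by 3.68 ± 0.67 on the log2 scale (edgeR adjusted p = 0.0136) and was at -5.29 without blister 3, and was called with any 1 library left out. Col13a1 and Col25a1 were at 0.594 CPM or less in blisters and between 1.05 and 3.80 CPM in controls, with log2 fold changes of -3.38 and -3.11 (adjusted p = 0.0184 and 0.0303). The call of Col13a1 was lost without blister 1 or control 1 (0.0702 and 0.0571), and that of Col25a1 without blister 1, blister 2, control 1 or control 3 (0.0583 to 0.102).

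Col26a1 was at 0.367, 0.550 and 3.14 CPM in blisters and at 19.9, 19.8 and 21.2 CPM in controls, or 1.35 ± 1.55 against 20.3 ± 0.795 CPM (mean ± SD, n = 3 per group). The 3 controls were almost equal, and blister 3 was again the highest blister. Col26a1 fell by 3.82 ± 0.63 (edgeR adjusted p = 0.0106) and was called with any 1 library left out. Col8a1, the gene of a network-forming chain of vessel walls and the cornea, was at 12.6, 7.98 and 16.7 CPM in blisters and at 14.0, 15.7 and 13.7 CPM in controls, which overlapped, with a log2 fold change of -0.21 ± 0.26 (adjusted p = 0.581).

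The chains under 10 CPM numbered 20, of which 13 were tested and 7 were called lower (53.8%, against 11.6% of all genes). Besides Col11a1, Col13a1 and Col25a1 these were Col28a1 (log2 fold change -1.75, edgeR adjusted p = 0.0156), Col20a1 (-1.48, adjusted p = 0.0146), Col9a2 (-2.32, adjusted p = 0.0440) and Col9a3 (-1.24, adjusted p = 0.0496). Leaving out any 1 library other than blister 2 ended the call of Col9a2 (adjusted p = 0.0737 to 0.114), and any 1 other than blister 3 that of Col9a3 (0.0572 to 0.141). Col28a1 lost its call without blister 1, control 1 or control 2 (0.0518 to 0.0635), and Col20a1 without control 1 (0.0538). Col8a2 and Col19a1 were not called, at -1.36 (adjusted p = 0.0780) and -1.15 (adjusted p = 0.274). Col8a2 was called lower without blister 3 (-2.06, adjusted p = 0.0219), without replicate 3 of both groups (-1.77, 0.0413) and with the replicate block (-1.47, 0.0490), and Col19a1 was at -0.48 without control 3 (0.699). Col9a1, Col10a1 and Col22a1 were too low to test, like Col2a1, Col24a1, Col6a4 and Col6a5, and none of these 7 was above 1.36 CPM in any library.

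Control 3 was the highest of the 6 libraries in 29 of the 42 chains, and above 2 times the mean of controls 1 and 2 in 15 of the 35 tested. By class these were 7 of 9 fibrillar chains, 0 of 6 type IV chains and 8 of 20 others. Without control 3, edgeR called 15 chains lower (with 5.48% of all genes called lower) and 1 higher, Col18a1. The median log2 fold change of the fibrillar chains was then -1.48, and that of the other chains -1.95. Among the blisters, blister 3 was the highest library in 20 of the 35 chains tested and blister 2 in 12, of which 7 were fibrillar. These counts of chains by library were not set beside the same counts over all genes. They therefore do not tell whether the chains differ from other genes in this. Without blister 3 the log2 fold changes of several low or strongly lowered chains were larger in size, at -5.48 for Col26a1, -5.43 for Col13a1, -4.62 for Col6a3, -4.08 for Col25a1, -4.07 for Col14a1 and -4.07 for Col15a1.

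**Figure D5:**
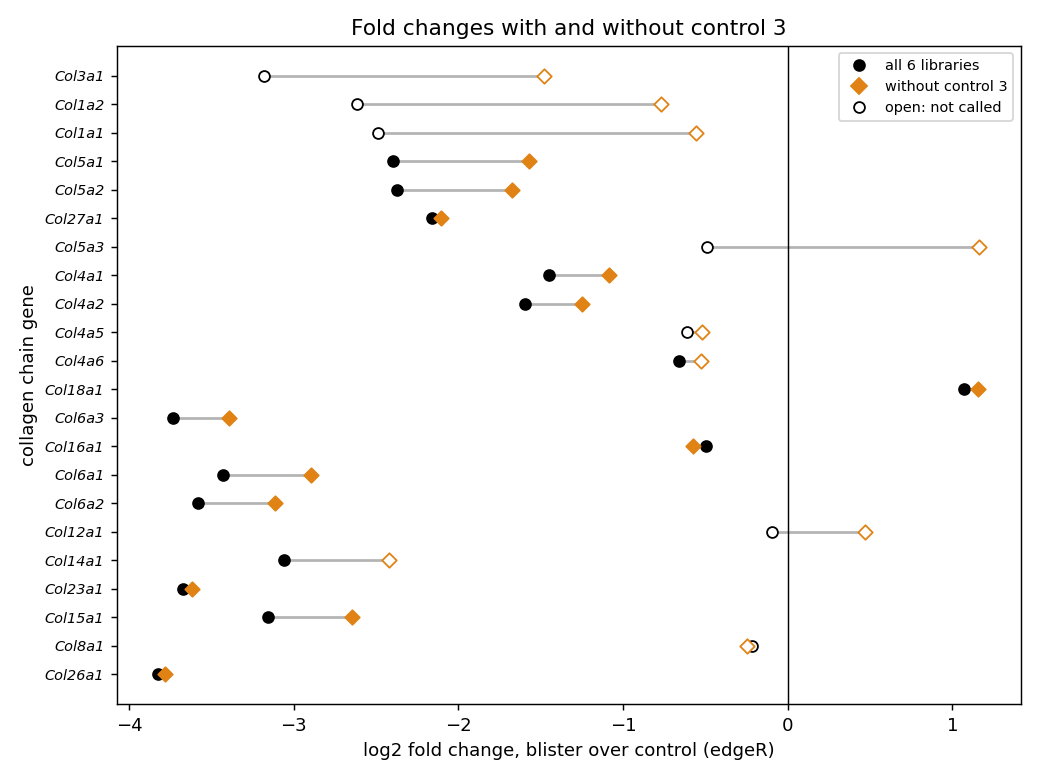
Log2 fold change of each chain of at least 10 CPM with all 6 libraries (circles) and without control 3 (diamonds); open symbols were not called by edgeR. The fold changes of Col1a1, Col1a2, Col3a1 and Col5a3 move by over 1.5 on this scale, and those of Col18a1, Col26a1, Col23a1 and Col27a1 by less than 0.2.

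Of the 21 chains called lower, 5 were called in all 6 fits that left out 1 library (Col6a1, Col6a2, Col23a1, Col26a1 and Col27a1), and 16 lost the call in at least 1 of them. Without blister 1, 8 chains were called lower (with 3.46% of all genes called lower), and without control 1, 10 were (with 3.37%). Other settings called 19 chains lower with the replicate number as a block (10.8% of all genes), 24 by DESeq2 (13.2%), 16 with a stricter filter on low values (12.3%) and 15 without blister 2 and control 3 (5.90%).

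Of 22 genes for collagen synthesis inside the cell, 20 were tested, 2 were called higher (10%, near the 9.74% of all genes), 4 lower (Lepre1, Leprel2, Plod2 and Serpinh1; 20%, against 11.6%) and the median log2 fold change was -0.02. P4hb, a subunit of the prolyl hydroxylase, rose by 0.67 ± 0.14 (edgeR adjusted p = 0.0188). Leprel4, which acts with a lysyl hydroxylase, was at 105, 91.0 and 82.4 CPM in blisters and at 48.6, 59.0 and 54.7 CPM in controls; it rose by 0.78 ± 0.13 (adjusted p = 0.0118), a call lost without control 1 (adjusted p = 0.0544). Leprel2, a prolyl 3-hydroxylase, was at 6.97, 10.0 and 6.62 CPM in blisters and at 18.1, 16.2 and 29.5 CPM in controls; it fell by 1.44 ± 0.29 (adjusted p = 0.0173), a call lost without blister 1 (adjusted p = 0.0633). Serpinh1, the collagen chaperone HSP47, fell by 0.95 ± 0.22 (adjusted p = 0.0249).

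Of 13 genes that trim or crosslink procollagen, 12 were tested, 4 were called lower (Bmp1, Tll1, Loxl2 and Loxl4) (33.3%, against 11.6% of all genes) and none higher (0 at an unadjusted p under 0.05), with a median of -1.22. Loxl4, a crosslinking enzyme, was at 0.413 to 0.848 CPM in blisters and 3.15 to 7.72 CPM in controls, and fell by 3.04 ± 0.49 (edgeR adjusted p = 0.0103). Its relative Loxl2 was at 3.21, 8.39 and 5.94 CPM in blisters and at 17.5, 14.8 and 66.8 CPM in controls; it fell by 2.53 ± 0.65 (adjusted p = 0.0338), and the call was lost without blister 1, 2 or 3, control 1 or control 3 (adjusted p = 0.0516 to 0.110) and by limma-voom (0.0718). Of 15 partners of fibrils, 9 were tested and 4 were called lower (Dcn, Bgn, Lum and Fn1; 44.4%), with a median of -2.32. Lum, a proteoglycan that spaces fibrils, was at 0.917 to 1.51 CPM in blisters and at 4.37, 5.60 and 38.5 CPM in controls, and fell by 3.84 ± 0.94 (adjusted p = 0.0291). Fn1, the fibronectin gene, was at 65.1 to 104 CPM in blisters and at 178, 178 and 537 CPM in controls, and fell by 1.76 ± 0.45 (adjusted p = 0.0338). Both calls were lost when any 1 blister library was left out (adjusted p = 0.0593 to 0.102 for Lum and 0.0540 to 0.111 for Fn1), and that of Lum also by limma-voom (0.114). Without control 3 the log2 fold changes were smaller, at -2.14 for Lum (0.0227) and -1.02 for Fn1 (0.0327), both still called, and at -1.48 for Loxl2.

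Of 10 collagen receptors 9 were tested, edgeR called 0 in either direction, with 0 at an unadjusted p under 0.05, and their median was -0.13. DESeq2 and limma-voom also called 0 (each with 1 at an unadjusted p under 0.05). Itga1, an integrin chain that binds type IV collagen, was at -1.48 (edgeR adjusted p = 0.150), but was called at -2.71 without blister 3 (adjusted p = 0.0179) and at -1.87 with the replicate number as a block (0.0497). Itga11, the chain of a fibroblast receptor for type I collagen, was at -1.55 (adjusted p = 0.184).

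Of 9 genes that break collagen down, 6 were tested, with a median of -0.52. By edgeR 2 were called higher (33.3%, against 9.74% of all genes) and 2 lower, Mmp2 and Mmp14 (33.3%, against 11.6%). DESeq2 called 4 of the 9 higher and 3 lower, and of 15098 genes in all it called 1964 higher and 1986 lower. Mmp9, a gelatinase, was at 17.0, 123 and 16.3 CPM in blisters and at 1.84, 0.210 and 0.568 CPM in controls, and rose by 5.92 ± 1.10 (edgeR adjusted p = 0.0142). Mmp13, a collagenase, was at 13.8, 93.2 and 18.9 CPM in blisters and at 4.98, 3.15 and 1.93 CPM in controls, and rose by 3.65 ± 0.80 (adjusted p = 0.0215), a call lost when any 1 control was left out (adjusted p = 0.0589 to 0.0692). Blister 2 was the highest library for both, and without it Mmp9 was at 4.29 (adjusted p = 0.0195) and Mmp13 at 2.30 (0.0242); without control 1, Mmp9 was at 6.96 (0.0411). Mmp2, the other gelatinase, was at 21.6 to 26.9 CPM in blisters and at 42.3, 51.1 and 114 CPM in controls, and fell by 1.51 ± 0.36 (adjusted p = 0.0271), a call lost without blister 1 or 2 (0.0929 and 0.0681). The 6 markers of neutrophils, cells that also carry Mmp9, summed to 518, 764 and 252 CPM in blisters and to 12.2, 4.69 and 9.42 CPM in controls. All 6 were called higher (100%, against 9.74% of all genes), and the most abundant, S100a9, rose by 6.35 ± 0.59 (edgeR adjusted p = 0.0041). Their part in the level of Mmp9 was not tested.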

How the data were processed

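Total RNA of the 6 samples was sequenced as TruSeq libraries of poly(A) RNA, per the labels' protocols. The deposited values are raw counts per gene, which the authors made with HISAT2 2.0.0 and featureCounts on NCBIM37 (mm9), per the submitters' processing notes; the annotation, the featureCounts version and the use of strand were not stated in the sources used here, so reads of overlapping genes (Col4a1 and Col4a2 among them) may not be told apart. Totals were 7600567 to 15912863 counts per library.

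Genes were tested with edgeR 4.0.16 in R 4.3.3 (filterByExpr with a minimum count of 10 and a total of 15, TMM, quasi-likelihood test, Benjamini-Hochberg over 14028 genes, threshold 0.05), 3 blister against 3 control. The SE of a log2 fold change was derived from the test, as its absolute value over the square root of the F statistic. Single values were compared by two-sided exact permutation tests. CPM use the library total times the TMM factor, and levels per kb use the summed exon length of GENCODE M21, another build than that of the counts.

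The chains and lists were chosen with earlier results of these data known. Named were chains of at least 10 CPM and those called higher, the 2 list members with the smallest p plus the first of opposite sign if called, and the most abundant marker of each cell type; the other genes named with values were chosen after their values were seen. The lists cover collagen synthesis, processing, fibril partners, receptors and breakdown, and markers of 10 cell types.

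Alternatives were other scalings, other filters, a replicate block, DESeq2 1.42.0, limma-voom (limma 3.58.1), leaving out libraries, and 1 added after the data were seen, without blister 2 and control 3. The code was tested on simulated data.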

Additional observations from a re-analysis of the deposited data

How the results depend on the processing

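Col18a1 was the single chain called higher under every alternative. The number of chains called lower, 21, was 16 to 24 under other scalings, filters and tools, 8 (without blister 1) to 23 with 1 library left out, 21 without replicate 3 of both groups and 15 without blister 2 and control 3, the comparison chosen after seeing the data; 12 of those 15 were among the 21. The calls over all genes were 785 to 4061 with 1 library left out and 1493 without blister 2 and control 3. The median log2 fold change of the fibrillar chains (-2.40) was -2.67 to -1.48 with 1 library left out and -1.14 without replicate 3 of both groups. That of the type IV chains (-1.28) was -1.61 to -0.92 with 1 library left out and -0.80 without blister 2 and control 3. That of the other chains (-2.69) was -1.76 with no filter and -1.76 by DESeq2, where more low chains were tested, -2.92 to -1.95 with 1 library left out, -2.14 without replicate 3 of both groups and -1.87 without blister 2 and control 3.

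Log2 fold changes of genes that were not called changed sign in some fits, and the cause was not tested. With 1 library left out, Col5a3 was -1.99 to 1.16, Col8a1 -0.48 to 0.025, Col12a1 -0.33 to 0.47, Pecam1 -1.67 to 0.94, Notch3 -0.060 to 0.38, Erbb3 -0.34 to 0.34 and Lpl -1.29 to 0.023. Without replicate 3 of both groups, Col5a3 was 1.53, Col12a1 0.36, Col6a6 0.21, Pecam1 0.92, Notch3 -0.078, Erbb3 -0.31 and Lpl 0.20. Without blister 2 and control 3, Col12a1 was 0.49 and Pecam1 0.52.  With library size alone Notch3 was -0.14 and Erbb3 -0.17, and by limma-voom Col12a1 was 0.040 and Erbb3 -0.018.

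Deviations of same-numbered libraries from their group means were correlated at r = 0.21, -0.26 and 0.01 for numbers 1, 2 and 3. Those of differently numbered libraries were correlated at r = -0.39 to 0.34. With 3 libraries a group, these values cannot tell whether the numbers are a pairing, and the main fit used none. With the replicate block, 19 chains were called lower, 17 of them among the 21, and 2876 genes in all; Col12a1 was then 0.035 and Erbb3 -0.020. With 3 libraries a group, chains of a few counts were not testable at this depth.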

Other observations

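Markers of the remaining cell types gave these values, beside 11.6% of all genes called lower and 9.74% called higher. The 7 pericyte and smooth muscle markers summed to 172 to 317 CPM in blisters and 299.7 to 392 CPM in controls; 5 were tested and 2 (Cspg4 and Tagln) were called lower by edgeR, and the most abundant, Notch3, was at a log2 fold change of 0.12 (adjusted p = 0.728). The 6 Schwann cell markers summed to 151 to 259 CPM in blisters and 195 to 207 CPM in controls; of 5 tested, Mbp was called higher and Sox10 lower, and Erbb3 was at 0.08 (adjusted p = 0.869). The 6 adipocyte markers summed to 16.4, 129 and 33.1 CPM in blisters and to 48.6, 61.9 and 117 CPM in controls; of 4 tested, Pparg was called lower, and Lpl was at -0.50 (adjusted p = 0.564). Of the 6 skeletal muscle markers 1 was tested, Tnnt3, at -2.39 (adjusted p = 0.234). Of the 8 hair follicle epithelium markers 7 (87.5%, against 11.6% of all genes) were called lower (Lhx2, Shh, Lef1, Sox9, Edar, Msx2 and Hoxc13). The most abundant, Krt17, was at 0.58 (edgeR adjusted p = 0.0526) and was called higher by DESeq2 (adjusted p = 0.00685). The list summed to 3735 to 4909 CPM in blisters and 2847 to 3740.4 CPM in controls, which follows Krt17.

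Chain genes that neighbour each other in RefSeq's GRCm38.p6 annotation formed 8 pairs. In some pairs the calls differed although both log2 fold changes were negative. Col3a1 (-3.18, not called) lies beside Col5a2 (-2.37, called lower), and Col4a5 (-0.61, not called) beside Col4a6 (-0.66, called lower). Such a difference in calls is not a difference in fold change. The ratio of Col4a5 to Col4a6 overlapped between the groups (exact permutation p = 0.9), and that of Col3a1 to Col5a2 was not tested.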
